A study of Mus musculus with 16 samples.

Results

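The Hedgehog genes described here are 9 members chosen by gene symbol from the 49315 genes of the table: the ligand genes Shh and Ihh, the receptor gene Ptch1, the signal transducer gene Smo, the transcription factor genes Gli1, Gli2 and Gli3, the decoy receptor gene Hhip and the co-receptor gene Boc. They were measured by bulk RNA sequencing of intervertebral discs from 16 mice, with 4 tail discs of each mouse pooled into 1 library. The mice were wild type or carried Adam8EQ, an allele of the membrane metalloprotease gene Adam8 that the labels do not describe further, and their discs were either intact or injured. There were 3 intact and 4 injured wild-type mice, and 4 intact and 5 injured mutants. The title of the series names the comparison group DBA, which is also the name of an inbred strain. Whether the mutants share that background is not given in the sources used here, nor are age, the way of injury and the time from injury to collection, so strain and allele cannot be told apart. Levels are in TPM (transcripts relative to a fixed library total), which scale reads by transcript length and library size and so allow genes to be set side by side.

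Hedgehog ligands are secreted proteins that bind Patched receptors on the receiving cell. Without ligand, Patched keeps Smoothened inactive, and the Gli3 protein is processed to a repressor at the primary cilium. With ligand, Smoothened becomes active and full-length Gli proteins turn on target genes, among them Gli1, Ptch1 and Hhip, so that the pathway induces its own inhibitors as well as its readout genes. In the embryo the notochord secretes Shh, and the nucleus pulposus, the soft centre of the disc, derives from the notochord. Ihh is best known from growth-plate cartilage.

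The promoters of 3 members are shown because these genes take up different places in the results: Ptch1 and Gli2 fell in the injured mutants, and the change of Gli3 did not pass the test. Each is a window of 300 bases, from 250 bases before to 50 bases after the start of the gene in RefSeq on GRCm38.p6, written 5′ to 3′ on the gene's strand, with GC boxes (GGGCGG or its reverse complement CCGCCC, the letters bound by Sp1-type factors) in capitals. The windows are chr13:63565686-63565985 on the minus strand for Ptch1, chr1:119053570-119053869 on the minus strand for Gli2 and chr13:15463473-15463772 on the plus strand for Gli3. In the GENCODE M21 annotation Ptch1 begins further upstream, at chr13:63573598, and Gli3 at chr13:15463235. The windows of these genes thus lie inside the annotated genes and do not cover their outermost start.
Ptch1: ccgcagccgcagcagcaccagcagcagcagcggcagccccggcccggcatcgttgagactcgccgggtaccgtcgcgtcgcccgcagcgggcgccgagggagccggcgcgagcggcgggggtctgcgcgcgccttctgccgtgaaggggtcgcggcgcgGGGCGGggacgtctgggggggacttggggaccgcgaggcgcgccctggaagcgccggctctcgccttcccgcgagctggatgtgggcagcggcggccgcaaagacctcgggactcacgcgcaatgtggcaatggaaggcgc
Gli2: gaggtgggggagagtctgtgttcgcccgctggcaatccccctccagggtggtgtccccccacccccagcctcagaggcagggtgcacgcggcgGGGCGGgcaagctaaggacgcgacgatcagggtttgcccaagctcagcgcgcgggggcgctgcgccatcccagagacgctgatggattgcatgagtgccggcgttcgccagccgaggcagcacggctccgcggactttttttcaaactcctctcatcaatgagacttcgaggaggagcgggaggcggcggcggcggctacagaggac
Gli3: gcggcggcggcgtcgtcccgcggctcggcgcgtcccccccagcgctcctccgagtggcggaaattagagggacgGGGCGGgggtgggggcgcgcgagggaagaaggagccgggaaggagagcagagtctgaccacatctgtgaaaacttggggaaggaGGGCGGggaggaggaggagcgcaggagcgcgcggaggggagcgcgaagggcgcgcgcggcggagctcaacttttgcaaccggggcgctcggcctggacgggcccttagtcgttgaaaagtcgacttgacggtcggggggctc
The table matched 6 of the 9 members, Ihh, Ptch1, Smo, Gli2, Gli3 and Hhip, and not Shh, Gli1 or Boc. All 6 windows were rich in G and C, from 67.3% in Gli2 to 76.3% in Ptch1, against a median of 52.7% over 32851 windows. A GC box was found on either strand in 5 of the 6, all but Smo, and in 35.7% of all windows. The letters GACCACCCA, the consensus site of Gli proteins, or their reverse complement TGGGTGGTC, were in 0 of the 6 windows and in 0.253% of all windows. Ptch1, Gli2 and Gli3 were thus alike in holding at least 1 GC box.

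The libraries held between 10196839 and 24837516 reads, as implied by the TPM values and exon lengths, with a median of 13299153. Of the notochordal markers, T (brachyury), the notochord's transcription factor, was between 1789 and 3370 TPM in intact discs. Foxa1 was at most 8.20 and Foxa2 at most 4.91 TPM in intact discs, and Noto was under 1 TPM in all libraries. Adam8 itself was between 0.956 and 2.97 TPM in intact discs, between 3.52 and 66.3 TPM in injured wild-type discs and between 16.2 and 264 TPM in injured mutant discs, and since the labels do not say how the allele affects the transcript, its level does not check the genotype. The labels do not say which mice were litter mates. All wild-type library names begin with D, so library naming and genotype cannot be told apart. Mutant names begin with A8 (injured 1 and 2, intact 1 and 2) or with M (injured 3, 4 and 5, intact 3 and 4), and values within each set are given beside the members called for injury in mutants.

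Levels of the 9 members fell into 2 tiers. In intact wild-type discs Smo was the highest at 222 ± 10.1 TPM (SD, n = 3), above every value of the other members. Ptch1 at 102 ± 11.9, Gli1 at 91.0 ± 3.35, Boc at 79.9 ± 23.4 and Gli2 at 67.2 ± 2.03 TPM followed, and each neighbour in that order overlapped the next in its range over the 3 mice. Gli3 lay below them without overlap at 33.9 ± 0.832 TPM. Hhip at 0.952 ± 0.149, Ihh at 0.300 ± 0.320 and Shh, listed at 0 in all 3 mice, formed the lower tier. In intact mutants the order was Smo, Boc, Gli1, Ptch1, Gli2, Gli3, Hhip, Ihh and Shh, and Boc, Gli1, Ptch1 and Gli2 again overlapped their neighbours. In injured mutants Gli1 stood last of the 6 abundant members, at 22.9 ± 6.17 TPM (SD, n = 5), under Gli2 at 29.3 ± 2.55 and Gli3 at 32.4 ± 4.16 TPM, although the ranges of these 3 overlapped.

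**Figure D1:**
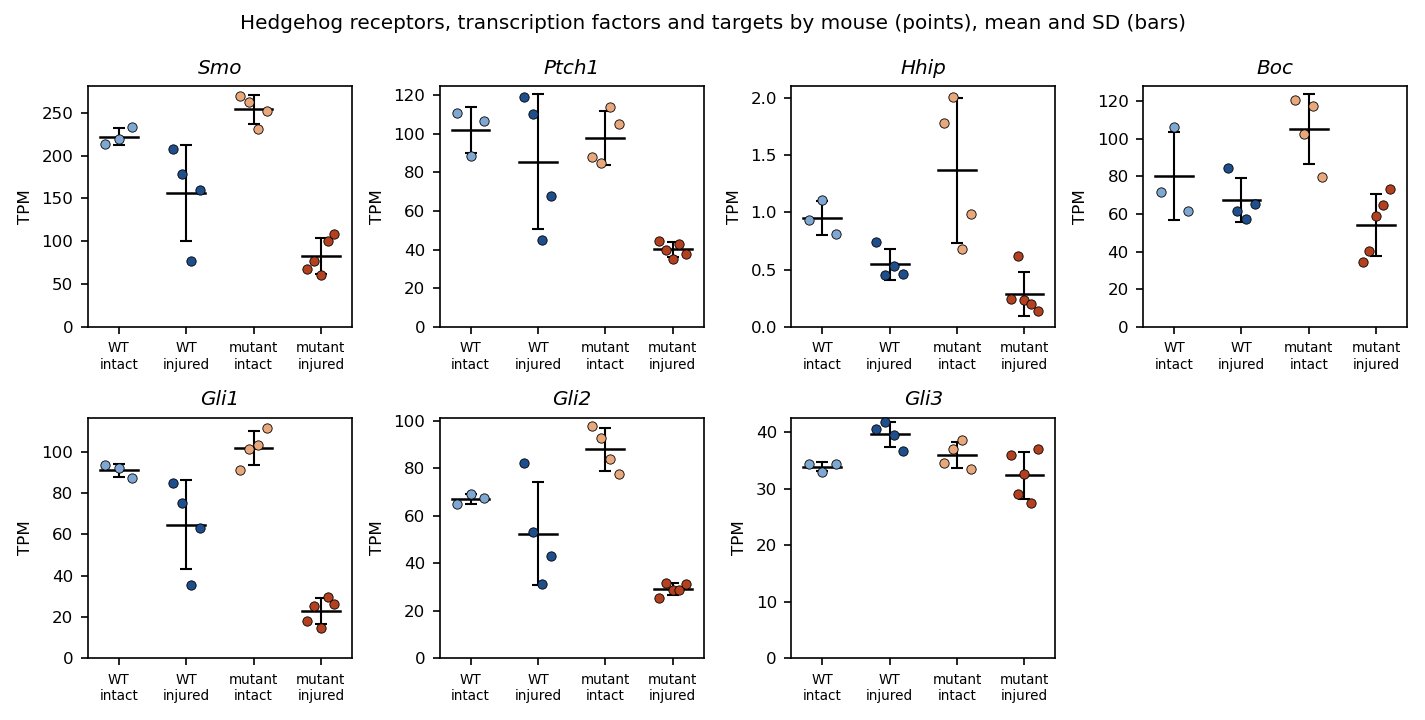
TPM of the 7 tested members in each mouse (points) by genotype and injury, with the group mean and SD (bars). Injured mutants lie below intact mutants without overlap for every gene shown except Gli3, and Gli1 is between 14.9 and 29.6 TPM in them.

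Of the ligand genes, Shh and Ihh were close to undetected in all groups. Shh, the ligand made by notochord and floor plate, was listed at 0 in 8 of the 16 libraries and came to 17 implied reads over all of them. Its highest value was 0.485 TPM, in injured mutant 1, which stands for 8 reads. Ihh, the ligand of growth-plate chondrocytes, was above 0 in every library but came to 59 implied reads in all. The highest Ihh value was 1.28 TPM, or 14 reads, in injured wild-type mouse 4, and the remaining 15 libraries were under 1 TPM. Dhh, the third ligand gene and best known from Schwann cells and testis, ranged from 0 to 3.80 TPM, with its highest value also in injured mutant 1. Neither Shh nor Ihh reached 1 TPM in 3 libraries, the minimum for testing. Fitted without that minimum, over 35261 genes, their log2 changes on injury in mutants were 0.18 ± 0.09 for Shh (SE; limma adjusted p = 0.205) and 0.20 ± 0.20 for Ihh (limma adjusted p = 0.543), so that at these read numbers no difference between groups was detectable for either.

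**Figure D2:**
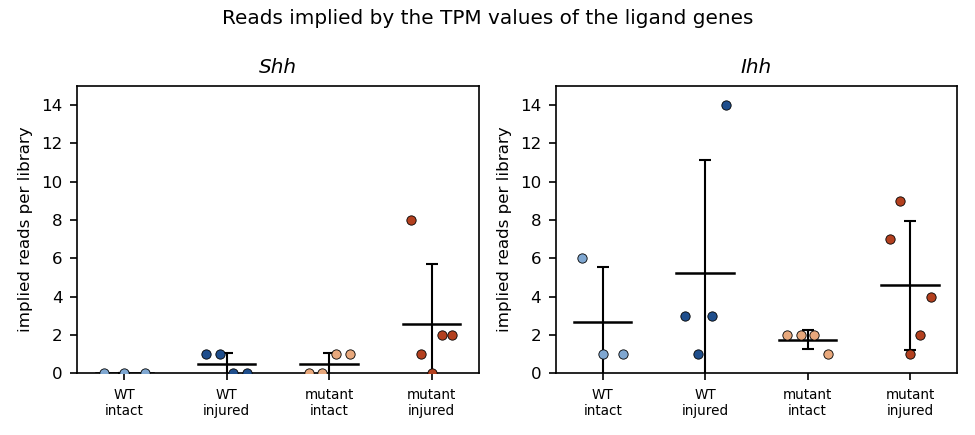
Reads implied by the TPM values of Shh and Ihh in each library (points) by group, with the group mean and SD (bars). Shh has at most 8 reads and Ihh at most 14 reads in any library.

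Injury in mutants went with lower levels of 6 of the 7 tested members, Ptch1, Smo, Gli1, Gli2, Hhip and Boc, at a limma adjusted p under 0.05 over the 24188 genes tested. Among all those genes 30.8% were called, 17.7% as lower. Over all genes 7438 were called with all libraries, 725 with only mutants named in M and 3583 with only mutants named in A8. The median log2 change of the 7 members was -1.26, against -0.08 over all tested genes. Injured and intact mutants did not overlap for the same 6 members, which was the case in the lower direction for 15.3% of all genes. Hhip entered the test through 3 libraries at 1 TPM or more, all of them intact, so the filter favoured a lower injured level, and the count without it is 5 of 6.

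Among the receptor and transducer genes, Ptch1, which encodes the main Hedgehog receptor and is itself a target, stood at 88.0, 84.9, 114 and 105 TPM in intact mutants 1 to 4. Injured mutants 1 to 5 had 44.5, 40.0, 35.3, 43.0 and 37.6 TPM of Ptch1. Every injured mutant was thus below every intact one, and the injured group was the tighter of the pair. The mean was 2.44-fold lower, and the log2(TPM + 1) scale gave a change of -1.26 ± 0.22 (SE; limma adjusted p = 0.00137). Ptch1 changed by -1.48 among mutants with names in M (limma adjusted p = 0.0443) and by -1.02 among those in A8, where the call was lost (limma adjusted p = 0.0947).

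Smo, the 7-transmembrane transducer released by Patched, had the highest mean of the members in every group. Its levels were 269, 263, 231 and 252 TPM in intact mutants 1 to 4. In injured mutants 1 to 5 they were 67.1, 76.9, 60.3, 101 and 108 TPM. All 5 injured values were under the lowest intact value by a wide margin, with mice 4 and 5 the least reduced. The log2 change was -1.64 ± 0.24 (SE; limma adjusted p = 0.000587), and the mean was 3.07-fold lower. Among mutants with names in M the change of Smo was -1.46 and missed the threshold (limma adjusted p = 0.0573), and among those in A8 it was -1.88 (limma adjusted p = 0.0193).

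Gli1, an activator whose transcription is the usual readout of the pathway, had the largest change of the members on the log2(TPM + 1) scale. By the ratio of mean TPM it was 4.46-fold lower, and Hhip, at far lower levels, 4.77-fold lower. Gli1 was at 91.4, 101, 103 and 112 TPM in intact mutants 1 to 4. It was at 18.0, 25.5, 14.9, 29.6 and 26.4 TPM in injured mutants 1 to 5. The groups were far apart, with injured discs at 22.4% of the intact mean. The log2 change was -2.15 ± 0.23 (SE; limma adjusted p = 0.000153). It was -2.19 among mutants with names in M and -2.11 among those in A8, and both sets passed the test.

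Gli2, the main activator among the Gli factors that cells hold before a signal arrives, measured 97.8, 92.6, 83.8 and 77.7 TPM in intact mutants 1 to 4. The injured mutants were at 25.5, 31.8, 28.7, 28.9 and 31.5 TPM. Injured discs again lay in a narrow band well under the intact ones. The log2 change of Gli2 was -1.55 ± 0.19 (SE; limma adjusted p = 0.000300), and it was -1.41 among mutants with names in M and -1.71 among those in A8, both past the test. Gli3, which acts mainly as the pathway's repressor, was by contrast at 34.6, 37.0, 38.7 and 33.5 TPM in intact mutants 1 to 4 and at 36.0, 29.1, 32.6, 27.5 and 37.0 TPM in injured mutants 1 to 5. The groups overlapped for Gli3, and the log2 change of -0.15 ± 0.09 (SE) did not pass the test (limma adjusted p = 0.237).

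Boc, a cell-surface co-receptor that presents ligand to Patched, was at 120, 102, 118 and 79.8 TPM in intact mutants 1 to 4. In injured mutants 1 to 5 it was at 34.7, 40.0, 58.7, 65.0 and 73.2 TPM. The highest injured value, of mouse 5, came close to the lowest intact value, of mouse 4. The log2 change was -0.98 ± 0.22 (SE; limma adjusted p = 0.00539). It was -1.55 among mutants with names in A8 and -0.56 among those in M, where the call was lost (limma adjusted p = 0.190). Hhip, a membrane protein that binds ligand and is induced by signalling, was at 1.78, 2.01, 0.684 and 0.990 TPM in intact mutants 1 to 4 and at 0.247, 0.616, 0.236, 0.197 and 0.138 TPM in injured mutants 1 to 5. Its log2 change was -0.85 ± 0.20 (SE; limma adjusted p = 0.00699), and these values rest on 336 implied reads over all 16 libraries. Hhip entered the test through intact libraries only, so the filter favoured a lower injured level, also in the fits by naming set. Among mutants with names in M the Hhip change was -0.62 and was not called (limma adjusted p = 0.154), and among those in A8 it was -1.03 (limma adjusted p = 0.0409).

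**Figure D3:**
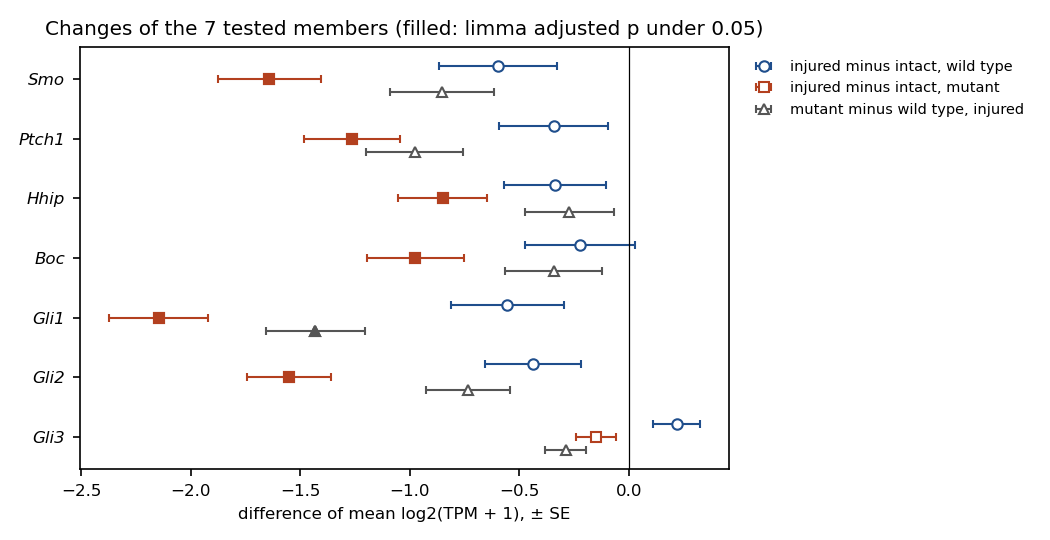
Differences of mean log2(TPM + 1) of the 7 tested members, with SE bars, for injury in wild type (circles), injury in mutants (squares) and genotype in injured discs (triangles); filled points passed the limma adjusted p of 0.05. For injury in mutants 6 of 7 squares are filled, and for genotype in injured discs the Gli1 triangle alone, at -1.43. The Hhip square is among the filled ones, but Hhip passed the filter through intact libraries only.

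The fall of these members in bulk tissue came with changes in markers of several cell types, and fewer cells of a type and less RNA per cell cannot be told apart. The counts for injury in mutants below stand beside 30.8% of all tested genes called and 17.7% lower. Of 9 tested notochordal genes 5 fell in injured mutants, T, Car3, Krt19, Krt8 and Cdh2, and the summed level of the list went from between 7089 and 15038 TPM in intact mutants to between 600.2 and 7094 TPM in injured ones. T was between 21.5 and 1568 TPM in injured mutants, and no notochordal gene was at 0 in all mice of a group. Of 7 annulus and tendon genes 4 fell, Tnmd, Fmod, Mkx and Scx, and Thbs4 rose, and the list summed to between 3822 and 4549 TPM in intact and between 1822 and 3445 TPM in injured mutants. In the macrophage list 5 of 6 genes rose, from a sum between 113.8 and 161.4 TPM to one between 323.1 and 1859 TPM, and 4 of 5 tested neutrophil genes rose, from a sum between 1.68 and 2.55 to one between 13.4 and 1004 TPM. Of the neutrophil genes, Csf3r and Cxcr2 reached 1 TPM in injured libraries only. S100a8 and S100a9 had medians of 0.489 and 0 TPM in intact wild type and stayed under 1 TPM in intact mutants. They too could pass only with injured libraries, so the filter favoured a rise of all these genes. Mpo was at 0 in all intact mutants. Of the cartilage list Cnmd alone fell, 1 of 7, which is near the share of all tested genes lower. Of the hypertrophic chondrocyte list 3 of 7 fell, Alpl, Pth1r and Col10a1, and Runx2 rose. The keratinocyte gene Krt1 was called as lower, 1 of 3 tested, but it reached 1 TPM in intact libraries only, so the filter favoured that direction. The endothelial, muscle, Schwann cell, osteoblast and adipocyte lists had 0 genes called. Endothelial sums were nonetheless higher without overlap, between 2.12 and 8.69 TPM in intact and between 9.38 and 61.7 TPM in injured mutants. The median log2 change of the endothelial list was 1.46. For injury in wild type, genotype in intact discs and the interaction, limma called 0 genes of every marker list, and between injured genotypes it called Alpl alone, as lower in mutants. The part of these shifts in the Hedgehog result was not tested. The notochordal sums of injured mutants 1 to 5 were 600.2, 3997, 1174, 7094 and 4033 TPM, beside Gli1 at 18.0, 25.5, 14.9, 29.6 and 26.4 TPM. Mutants 1 and 3 were thus the lowest and mutant 4 the highest in both. Intact mutant 3 had a notochordal sum of 7089 TPM and 103 TPM of Gli1.

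Of 60 further pathway genes considered, 59 were in the table and 56 were tested. In mutants 19 of the 56 fell on injury, 5 rose and 32 did not pass the test, beside 30.8% of all tested genes called and 17.7% lower. Of these 56, limma called 0 in each of the other 4 comparisons. The errors of changes below are SE. Within the receptor and co-receptor list 2 of 3 tested genes fell, with a median log2 change of -1.86. Gas1, a membrane-anchored co-receptor that acts with Boc and Cdon, changed by -1.86 ± 0.34 (SE), and Gpc3, a glypican that competes for ligand, by -2.16 ± 0.59 (SE). Among mutants with names in M these were -1.14 and -1.22 and were not called (limma adjusted p = 0.0968 and 0.0986). The third co-receptor, Cdon, was at 362 ± 48.8 TPM in intact (SD, n = 4) and 289 ± 72.4 TPM in injured mutants (SD, n = 5), a log2 change of -0.36 ± 0.20 that did not pass (limma adjusted p = 0.186).

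The genes for ligand production and release gave 3 lower of 6 tested, with a median log2 change of -0.22. Of all tested genes 17.7% were lower and 30.8% called. The list includes Dhh, which reached 1 TPM in injured libraries only, so the filter favoured a rise, and it was not called. Disp1, the transporter that lets lipid-modified ligand leave the producing cell, was at 443 ± 110.0 TPM in intact (SD, n = 4) and 137 ± 86.3 TPM in injured mutants (SD, n = 5), a log2 change of -1.93 ± 0.45 (SE). Scube2, a secreted carrier of released ligand, changed by -2.23 ± 0.45, and Scube3 by -0.46 ± 0.16. Among mutants with names in M, Disp1 (limma adjusted p = 0.174), Scube2 (0.136) and Scube3 (0.278) were not called. Disp1 was thus abundant in discs in which Shh and Ihh were nearly undetected.

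Downstream of Smo, 4 of 17 tested genes fell and 2 rose, with a median log2 change of -0.12. These counts and this median were near those of all tested genes (17.7% lower, 30.8% called, median -0.08). Evc and Evc2, which encode paired ciliary proteins that bind active Smoothened, changed by -1.12 ± 0.21 and -0.47 ± 0.14. Btrc, the ubiquitin ligase subunit that drives Gli processing, and Prkacb, a catalytic subunit of protein kinase A, made up the rest of the lower genes. The kinase genes Grk2, which phosphorylates Smoothened, and Prkaca rose by 0.86 ± 0.17 and 0.25 ± 0.08. Sufu, the cytoplasmic inhibitor that holds Gli proteins, was at 22.4 ± 0.993 TPM in intact and 21.9 ± 1.48 TPM in injured mutants (SD; limma adjusted p = 0.822).

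Of the 15 genes of ciliary transport and structure 5 fell and 1 rose, with a median log2 change of -0.31, beside 17.7% of all genes lower and 30.8% called. The lower ones were Ift172, Ift122, Ift140 and Ift52, subunits of the intraflagellar transport trains, and Dync2h1, the motor of the return journey, with log2 changes from -0.64 to -0.40. Kif3b, a motor of the outward journey, rose by 0.57 ± 0.12. Of the 15 tested tissue targets 5 fell and 2 rose, with a median log2 change of -0.36. Grem1, a BMP antagonist, changed by -2.64 ± 0.49, from 2035 to 355 TPM in the mean, and Nkx3-2, a transcription factor of the sclerotome, by -1.93 ± 0.29. The forkhead genes Foxf1, Foxd1 and Foxf2 also fell, whereas Foxc2 rose by 0.64 ± 0.23 and Snai1, a transcription factor of epithelial-mesenchymal transition, by 1.62 ± 0.20. Of the 24 pathway genes called, 5 were also called among mutants with names in M alone and 12 among those in A8 alone. Calls over all genes went from 7438 to 725 and 3583 in these 2 fits. Foxf1, Nkx3-2 and Snai1 kept their call under every alternative run for injury in mutants.

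**Figure D4:**
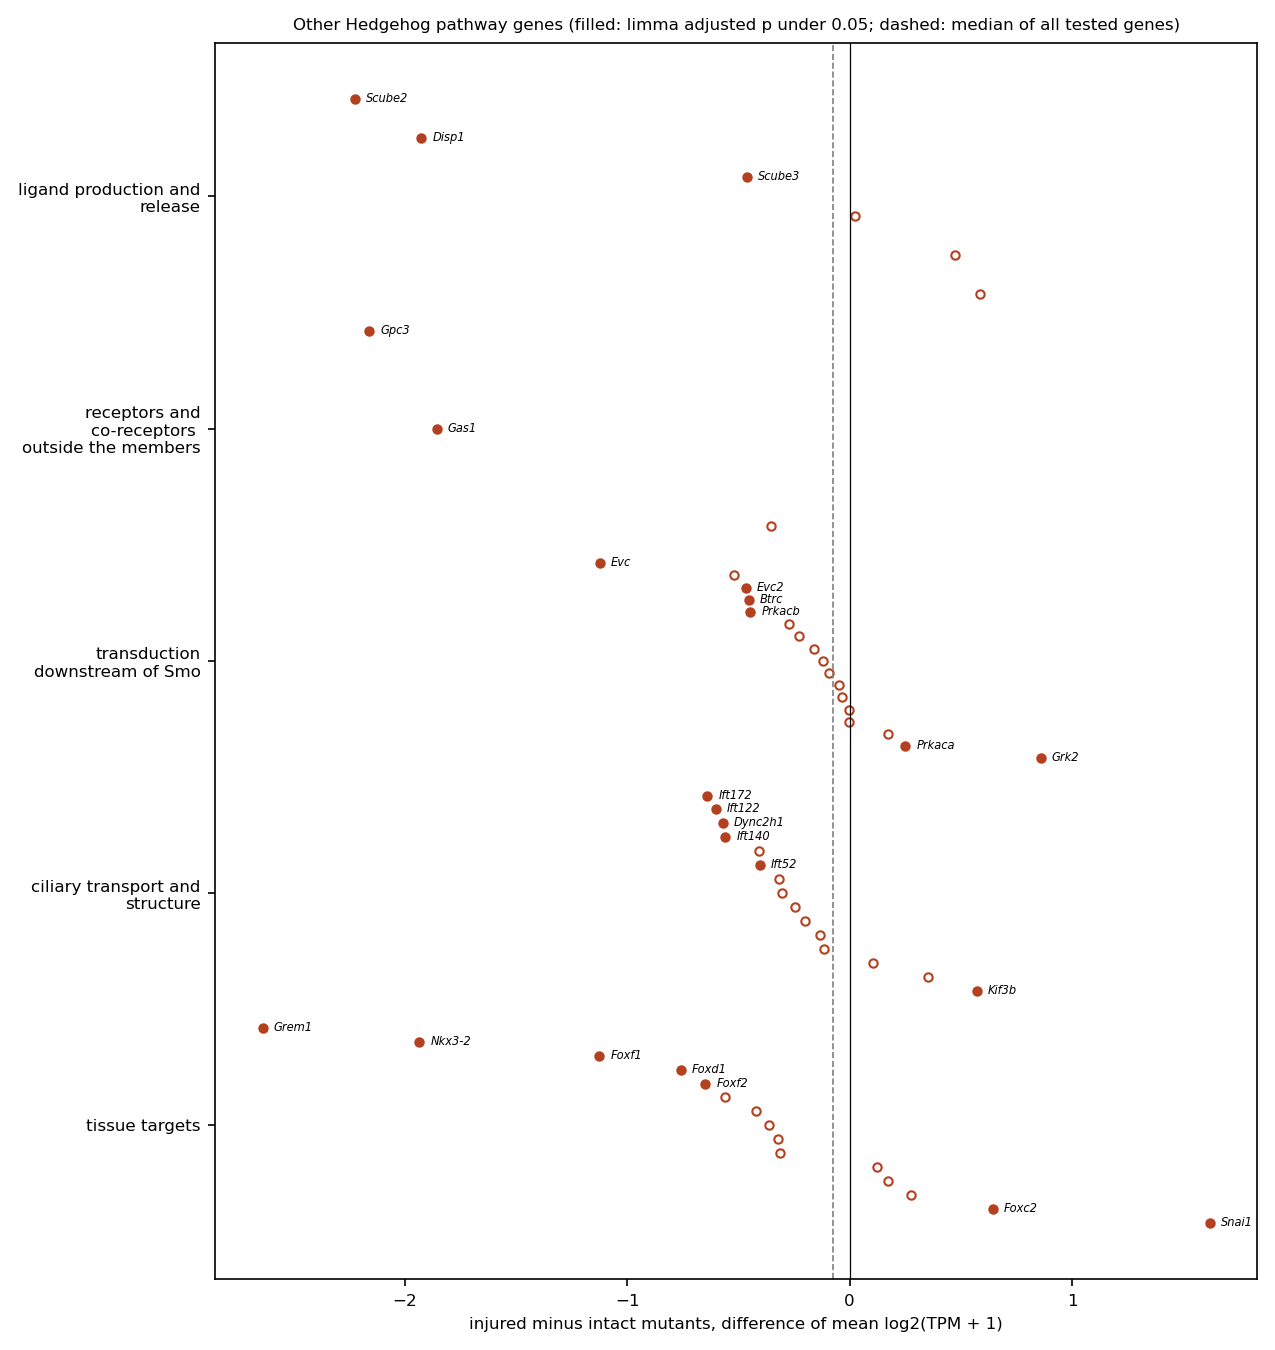
Change on injury in mutants, as the difference of mean log2(TPM + 1), of the 56 tested pathway genes outside the 9 members, grouped by role; filled points passed the limma adjusted p of 0.05 and the dashed line is the median of all tested genes, -0.08. In all 19 filled points lie to the left of 0 and 5 to the right, with Grem1 lowest at -2.64 and Snai1 highest at 1.62.

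Ratios within a library do not depend on its scaling. Gli1 over Gli3 was between 2.54 and 2.79 in intact wild-type discs and between 2.64 and 3.34 in intact mutants. It was between 0.898 and 2.10 in injured wild-type discs and between 0.457 and 1.07 in injured mutants. Both injured groups therefore lay under both intact groups, and the pair of injured groups overlapped through injured wild-type mouse 3. Gli1 over Sufu was between 4.18 and 4.94 in intact and between 0.659 and 1.28 in injured mutants. In wild type it overlapped, at 3.61 to 4.31 in intact and 1.37 to 3.81 in injured discs. Gli1 over Smo behaved differently: it was between 0.374 and 0.439 in intact wild type, between 0.396 and 0.459 in injured wild type and between 0.339 and 0.447 in intact mutants. In injured mutants it was between 0.244 and 0.332, below every value of the other groups. Ptch1 over Smo did not fall in this way. It was between 0.323 and 0.493 in intact and between 0.348 and 0.664 in injured mutants, with overlap and a higher injured mean. A lower level relative to Smo was thus seen for Gli1 and not for Ptch1. Boc over Cdon was between 0.274 and 0.311 in intact and between 0.125 and 0.230 in injured mutants. The co-receptor pair thus did not keep its proportion. Gli1 over Gli2 overlapped between intact and injured mutants, whereas Gli1 over Ptch1 and Gli2 over Gli3 were lower in injured mutants without overlap. How often ratios of other gene pairs separate these groups was not tested.

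**Figure D5:**
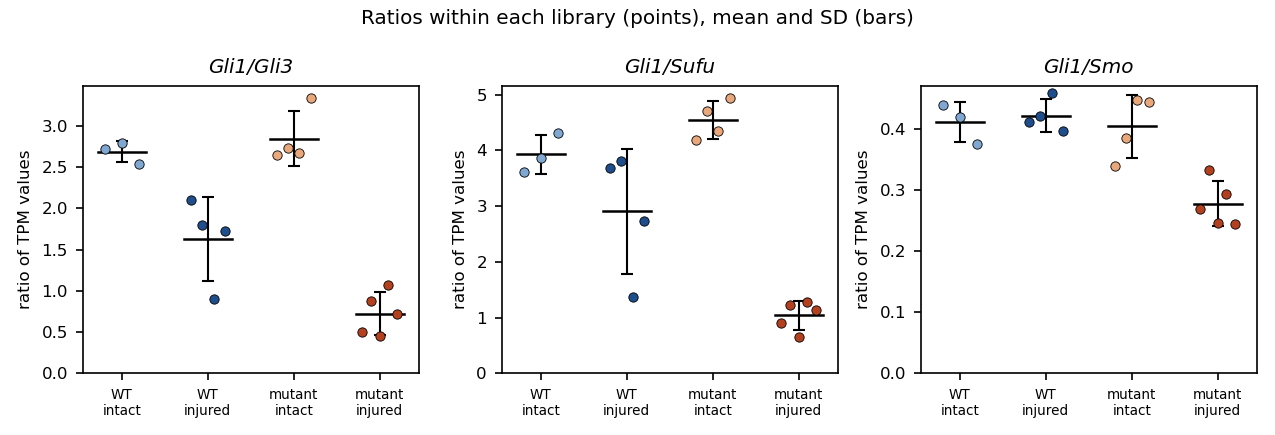
Ratio of Gli1 to Gli3, to Sufu and to Smo in TPM within each library (points) by group, with the group mean and SD (bars). The Gli1/Smo ratio of the 5 injured mutants, 0.244 to 0.332, lies below all 11 other libraries, whose lowest value is 0.339.

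In wild-type mice 0 of the 7 members passed the limma test on injury, against 0.116% of all genes, and limma-voom on implied reads also called 0. At an unadjusted p under 0.05 there were 2 members, Gli1 and Smo, and 17.2% of all genes. Gli1 was at 93.6, 92.0 and 87.2 TPM in intact wild-type mice 1 to 3 and at 85.1, 75.2, 35.4 and 63.2 TPM in injured mice 1 to 4. All injured values lay under the intact ones, mouse 3 far below and mouse 1 just below, with a log2 change of -0.55 ± 0.26 (SE; limma adjusted p = 0.288). Smo was at 213, 220 and 233 TPM in intact mice and at 207, 179, 77.2 and 159 TPM in injured mice, again without overlap (log2 change -0.60 ± 0.27, limma adjusted p = 0.277). Hhip was also lower without overlap, but it passed the filter through intact libraries only, and without it the count is 2 of 6 members. This pattern held for 6.34% of all genes. Gli3 lay the other way: 34.4, 32.9 and 34.3 TPM intact and 40.5, 41.9, 39.5 and 36.7 TPM injured, a log2 change of 0.22 ± 0.11 (limma adjusted p = 0.304), and 9.22% of all genes were higher without overlap.

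The remaining members overlapped between intact and injured wild-type discs. Ptch1 was at 111, 88.3 and 107 TPM in intact mice and 119, 110, 45.1 and 67.9 TPM in injured mice. Gli2 was at 65.1, 69.1 and 67.4 TPM in intact mice and 82.2, 53.2, 31.1 and 43.3 TPM in injured mice. Injured mice 1 and 2 were thus near or above the intact level of Ptch1, and mice 3 and 4 were below it. The same mice 3 and 4 had the highest summed macrophage markers of the group, 1281 and 686.1 TPM against 151.4 and 186.8 TPM in mice 1 and 2, and the lowest notochordal sums, 3091 and 4492 TPM against 11250 and 9315 TPM; their part in the spread was not tested. Without injured mouse 1, Gli2 passed the test with a log2 change of -0.68 (limma adjusted p = 0.0450), and it was the only member to do so when single mice were left out.

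Between genotypes, intact discs differed in 0 of the 7 members by limma, against 0.0165% of all genes, and limma-voom also called 0. No member had an unadjusted p under 0.05, against 3.78% of all genes. Gli1 was between 87.2 and 93.6 TPM in the wild-type mice and between 91.4 and 112 TPM in the mutants, with a log2 difference of 0.16 ± 0.26 (SE). Gli2, at 65.1 to 69.1 TPM in wild type and 77.7 to 97.8 TPM in mutants, was the 1 member whose intact groups did not overlap in the higher direction, as was the case for 2.77% of all genes, and its log2 change of 0.38 ± 0.22 was not called (limma adjusted p = 1).

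In injured discs Gli1 was the 1 member that differed between genotypes by limma, against 0.918% of all genes and 0.728% in the lower direction. It was 1.43 ± 0.23 lower on the log2 scale in injured mutants (SE; limma adjusted p = 0.0258), and all 5 mutants, at most 29.6 TPM, were under all 4 wild-type mice, at least 35.4 TPM. Ptch1 was the second member without overlap, at 35.3 to 44.5 TPM in mutants and 45.1 to 119 TPM in wild type, and its log2 change of -0.98 ± 0.22 missed the threshold (limma adjusted p = 0.0504). Non-overlap in that direction was found in 3.86% of all genes. Gli2 (limma adjusted p = 0.0736), Smo (0.0804) and Gli3 (0.114) had unadjusted p under 0.05 with lower means in mutants, making 5 of the 7 members against 20.3% of all genes. The Gli1 call was lost in a fit of the 2 injured groups alone (limma adjusted p = 0.207), with only mutants named in A8 (0.153), and without injured mutant 3 (0.0629), injured wild-type mouse 1 (0.0665) or injured wild-type mouse 2 (0.0967). Injured wild-type mice 1 and 2 had the highest Gli1 of their group and neutrophil marker sums of 3.18 and 3.53 TPM. These sums were 185 and 138 TPM in injured wild-type mice 3 and 4, and 13.4 to 1004 TPM in injured mutants. The part of this spread in the genotype difference was not tested.

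Whether injury changed the members differently in the genotypes was tested by the interaction term, for which limma called 0 of the 24188 genes (0%) and hence 0 members, and limma-voom also called 0 members. At an unadjusted p under 0.05 there were 6 of the 7 members, all except Hhip, against 8.18% of all genes. The difference of log2 changes was -1.59 ± 0.34 for Gli1 (SE; limma adjusted p = 0.488) and -1.11 ± 0.29 for Gli2 (0.488). A different response of the mutants is therefore not shown at the adjusted threshold. Without injured wild-type mouse 3, the interaction of Gli1 was -1.85 and passed (limma adjusted p = 0.0192), and 15 of all tested genes passed.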

How the data were processed

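Discs of 16 mice were sequenced as 1 library each. Per the labels' protocols, ribosomal RNA was depleted, while the labels' molecule field reads polyA RNA. TPM values for all mice, with Ensembl identifiers and gene names, were deposited by the authors as 1 table. The submitters' processing notes name bcl2fastq 2.20 and GRCm38; the aligner, counter and use of strand are not given in the sources used here, so reads of overlapping or antisense genes may be shared.

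Groups came from the titles. The members and lists were chosen with earlier results of these data known. The members were named whatever their result, Cdon, Gas1, Dhh and Sufu likewise, and of each list at most the 6 called genes of largest change; some listed genes are not reported here. Genes that reached 1 TPM in 3 or more libraries were tested with limma 3.58.1 in R 4.3.3 (lmFit, eBayes with trend) on log2(TPM + 1), in 1 fit of all 16 libraries with a mean per group. P-values were adjusted by Benjamini-Hochberg over 24188 genes, with a threshold of 0.05; SE are moderated. Fold changes of low genes are understated on this scale. The script was tested on simulated data. P-values weigh a difference of group means against a spread pooled over the mice of all 4 groups. That spread was unequal between groups, with a Gli1 SD of 3.35 TPM in intact and 21.5 TPM in injured wild-type mice.

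Reads were implied from TPM and GENCODE M21 exon lengths: 94.2% to 95.0% of values under 20 reads lay within 0.05 of whole numbers. Exact zeros are listed as such. Lists held notochordal, cartilage, hypertrophic chondrocyte, annulus, osteoblast, neutrophil, macrophage, endothelial, muscle, keratinocyte, Schwann cell and adipocyte markers. Alternatives covered pseudocount, filter, scaling, variance model, weights, samples fitted, naming sets, the replicate block and each mouse left out; limma-voom on implied reads was added after seeing the data.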

Additional observations from a re-analysis of the deposited data

Results flagged for a closer look

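Ihh was 1.28 TPM in injured wild-type mouse 4, set apart from the other 3 injured wild-type mice, which were between 0.122 and 0.315 TPM. Hhip was 0.616 TPM in injured mutant 2, set apart from the other 4 injured mutants, which were between 0.138 and 0.247 TPM. Both were flagged by a gap to the nearest sample above Dixon's 95% critical value, in 27 groups of 4 or 5 mice looked at. Chance flags about 1 in 20 groups, and both values stand for few reads, 14 for Ihh.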

How the results depend on the processing

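Over 35 values of the members and 730 alternatives, 704 kept direction and side of the threshold, 13 gained a call, 9 lost one and 4 changed sign. Signs changed for uncalled differences between intact genotypes: Ptch1 (main -0.06) with only mutants named in M (0.11), without intact mutant 2 (0.00603) and without intact wild-type mouse 1 (0.00317), its range with 1 mouse left out being -0.16 to 0.00603; and Hhip with only mutants named in M (-0.0897).

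Members called for injury in mutants numbered 6, with 7438 of all genes called. They numbered 3 with only mutants named in M (725 of all genes) and 5 with only mutants named in A8 (3583 of all genes). With 1 mouse left out the count was 6 throughout. The counts of 6 and 5 include Hhip, which entered the test through intact libraries only, so the filter favoured its call as lower. Members differing between injured genotypes numbered 1, with 222 of all genes called. They numbered 2 with a mean of at least 5 TPM (269 of all genes), 4 with sample weights (1070) and 3 with limma-voom on implied reads (557). The count was 0 with only the groups compared (5 of all genes) and 0 with only mutants named in A8 (2). With 1 mouse left out it was 0 to 4, and 4 without injured wild-type mouse 3 (2253 of all genes). The cause was not tested. Members called for injury in wild type, and for the interaction, numbered 0, and 0 to 1 with 1 mouse left out.

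Same-numbered mice of different groups did not deviate together: correlations of their deviations were -0.22 to 0.0779 over 14 pairs. Such low values cannot exclude a pairing, and the labels do not say which mice were litter mates. With the replicate block 6 members were called for injury in mutants, 1 between injured genotypes and 0 in the other comparisons.

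Over all genes, injury in mutants called 7438, with a range of 725 (only mutants named in M) to 8559 (sample weights); genotype in injured discs called 222, with a range of 2 (only mutants named in A8) to 2253 (without injured wild-type mouse 3); injury in wild type called 28, with a range of 2 to 452. Among the pathway genes outside the members, 8 of the 24 called for injury in mutants lost the call without at least 1 of the mice: Evc2, Foxc2, Foxd1, Ift140, Ift52, Prkaca, Prkacb and Scube3. Read numbers limit Shh, Ihh and Hhip.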

Other observations

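Genes whose deviations from the group means followed those of Gli1 most closely over the 16 libraries, of 11926 compared, were Tet1 (Pearson r = 0.952), Frzb (0.939), Phyh (0.938) and Ldhb (0.934). Tet1 encodes a 5-methylcytosine dioxygenase and Frzb a secreted Wnt inhibitor. Over the 12 libraries without the injured wild-type mice, an alternative chosen after seeing the data, the values were 0.930, 0.907, 0.934 and 0.883. For Ihh the highest values were Nmnat1 (0.83) and Vav3 (0.751), and for Shh Drp2 (0.927) and Rbm43 (0.904), but these rest on 59 and 17 reads over all libraries. The libraries share a tissue but differ in depth and in cell type markers, and the values are descriptions only.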
